A study of Mus musculus with 8 samples.

Results

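The accessible chromatin around 8 transcription factor genes of lung mesenchyme, Tbx2, Tbx4, Tbx5, Foxf1, Tcf21, Meox2, Prrx1 and Twist1, was examined in 7 windows of the mouse genome (build GRCm39). Open chromatin regions (OCRs) are the entries of the deposited table that are not repeat entries, and they can overlap repeats. Those with a midpoint inside a window were taken, and this gave 378 of the 185268 OCRs. The windows were 85.5 to 86.1 Mb of chromosome 11 (Tbx2 and Tbx4, 86 OCRs), 119.7 to 120.2 Mb of chromosome 5 (Tbx5, 43 OCRs), 121.5 to 122.1 Mb of chromosome 8 (Foxf1, 109 OCRs) and 22.4 to 22.9 Mb of chromosome 10 (Tcf21, 42 OCRs). The others were 36.9 to 37.4 Mb of chromosome 12 (Meox2, 13 OCRs), 162.8 to 163.3 Mb of chromosome 1 (Prrx1, 61 OCRs) and 33.7 to 34.3 Mb of chromosome 12 (Twist1, 24 OCRs). Within the windows OCRs were taken by coordinates only, with no selection on their levels or genotype differences, but the windows themselves were picked with earlier results of these data known.

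ATAC-seq, which marks open DNA by the insertion of a transposase, was done on primary lung fibroblasts from 4 mice without cGAS (knockout, KO) and from 4 wild-type controls (WT). In each genotype 2 libraries carry a female label (F1, F2) and 2 a male label (M1, M2), and all cultures were kept at 5% CO2 and 5% O2. cGAS is a sensor of double-stranded DNA, and the KO allele, the strain and the age of the mice are not given in the sources used here. Primary cultures can hold several mesenchymal cell types. Fewer cells of a type and less accessibility per cell cannot be told apart in bulk libraries, and the cell type label was not checked against promoters of marker genes, since the gene annotation used here is of another build.

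T-box factors bind DNA through the T-box domain. Tbx2, Tbx4 and Tbx5 are expressed in the mesenchyme of the embryonic lung, where Tbx4 and Tbx5 are needed for branching of the airways. Foxf1 is a forkhead factor of the lung mesenchyme and a target of hedgehog signalling from the epithelium. Tcf21 and Twist1 are basic helix-loop-helix factors, Tcf21 marking a lineage of lung fibroblasts that includes lipid-storing cells and Twist1 acting in the formation of mesenchyme. Prrx1 is a paired-related homeobox factor of limb, craniofacial and other mesenchyme, and Meox2 is a homeobox factor known in muscle and vascular cells.

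The start regions of 3 of the genes show how their promoters differ in CpG content, a property that goes with open chromatin at promoters in many cell types. The sequences run from 250 bases before to 50 bases after the annotated start, 5′ to 3′ on the strand of the gene, and are RefSeq's for build GRCm38.p6, with CpG pairs in capitals.
Tcf21, chr10:22820094-22820393, minus strand: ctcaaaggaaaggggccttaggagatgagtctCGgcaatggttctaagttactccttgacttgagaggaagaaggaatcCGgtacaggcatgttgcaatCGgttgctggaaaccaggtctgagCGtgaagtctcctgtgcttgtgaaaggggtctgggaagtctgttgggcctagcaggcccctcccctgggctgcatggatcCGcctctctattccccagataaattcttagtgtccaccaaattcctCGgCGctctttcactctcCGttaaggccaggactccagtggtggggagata
Meox2, chr12:37108290-37108589, plus strand: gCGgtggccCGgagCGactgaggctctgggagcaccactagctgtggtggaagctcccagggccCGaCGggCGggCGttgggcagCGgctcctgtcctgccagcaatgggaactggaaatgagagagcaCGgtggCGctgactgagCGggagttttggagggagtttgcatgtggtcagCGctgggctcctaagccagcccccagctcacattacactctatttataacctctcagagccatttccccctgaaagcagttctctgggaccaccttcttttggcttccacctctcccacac
Prrx1, chr1:163313601-163313900, minus strand: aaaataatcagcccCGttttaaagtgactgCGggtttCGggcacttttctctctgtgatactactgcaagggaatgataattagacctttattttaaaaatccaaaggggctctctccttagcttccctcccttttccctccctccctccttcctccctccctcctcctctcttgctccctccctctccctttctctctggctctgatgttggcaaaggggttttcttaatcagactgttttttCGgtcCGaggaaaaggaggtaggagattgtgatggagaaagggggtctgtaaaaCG
The Tcf21 sequence holds 8 CpG pairs at 53.3% GC, that of Meox2 12 at 60.7% and that of Prrx1 6 at 47.7%. The Twist1 start region holds 27 CpG pairs at 66.0% GC and that of Tbx4 8 at 59.0%. Over the 32851 start regions of the RefSeq table, 94.6% hold a CpG pair, with a median of 7 pairs and of 52.7% GC. Twist1 therefore stood above most genes in CpG content, and Prrx1 just under the median. Of the 8 genes, 5 had an entry in that table, and Tbx2, Tbx5 and Foxf1 are named only. The coordinates of these sequences belong to GRCm38.p6 and were not placed on the OCR table, so no OCR is matched to a start site here.

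The libraries held 27956983 to 55268844 counts in OCRs, and the 378 OCRs had a median count of 104 per library and a lowest count of 2. Levels are given as CPM, counts scaled to the OCR total of each library with trimmed-mean (TMM) factors. The first principal component of all OCRs took 45.7% of the variance and set KO M1, KO F1, WT M2 and WT F1 apart from the remaining 4, so it crossed both genotypes. The second took 26.6% and separated the genotypes, with KO libraries at -144.4 to -41.6 and WT libraries at -9.4 to 162.2. Components made from the OCRs outside the windows took 49.5% (first) and 21.1% (second) of the variance of the 378 OCRs. The second of these also separated the genotypes (0.145 to 0.502 in KO, -0.565 to 0.033 in WT). Over 15 OCRs at the start of chromosome Y, KO F2, which carries a female label, had 24.9 CPM. Male-labelled libraries had 31.6 to 43.4 CPM there, and no other female-labelled library exceeded 0.0274 CPM.

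Each OCR was tested between the genotypes with edgeR's quasi-likelihood test, fitted over all OCRs with the sex label as covariate. With Benjamini-Hochberg adjustment, 0 of the 378 OCRs passed an adjusted p of 0.05 (background 0% of all OCRs), and the lowest adjusted p was 0.323. At an unadjusted p under 0.05 there were 33 OCRs (8.73%), a share near the 9.87% of all OCRs. Of these, 24 were lower in KO (6.35%, against 3.45% of all OCRs) and 9 higher (2.38%, against 6.43%). KO and WT libraries did not overlap at 18 of the 378 OCRs (4.76%, against 5.98% of all OCRs), 5 with KO above WT (1.32%, against 3.47%) and 13 with KO below WT (3.44%, against 2.51%). DESeq2 called 2 of the 378, both lower in KO (0.53%, against 1.48% of all OCRs called by it in either direction and 0.234% called lower), 1 in the Tcf21 window and 1 in the Foxf1 window. With 1 surrogate variable, an estimate of hidden variation between libraries, added to the edgeR model, 12 passed (3.17%, against 5.82% of all OCRs), 3 higher in KO (background 4.21%) and 9 lower (background 1.62%).

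Fold changes of KO over WT lay below 0 at 250 of the 378 OCRs (66.1%), with a median log2 of -0.125, where 49.9% of all OCRs lay below 0, 50.1% above, and their median was 0.0. This balance depended on the model: with 2 surrogate variables added, 44.7% of the 378 and 47.9% of all OCRs lay below 0. The second of these variables was higher in every KO library (0.156 to 0.507) than in every WT library (-0.556 to 0.0354). The fit with both could therefore take up part of a genotype difference. With 1 surrogate variable the share was 68.0%, and it was 62.7% to 67.7% when each library was left out. The Prrx1 window had 83.6% of its OCRs below 0, the Tbx5 window 74.4%, Tcf21 73.8%, Twist1 70.8%, Meox2 69.2%, Foxf1 56.9% and Tbx2-Tbx4 55.8%. In the Meox2 window the share was 38.5% without WT F2 and 46.2% without KO F1, so its direction turned when 1 library was left out. In the Twist1 window it was 50% with limma voom sample weights. OCRs of a window are not independent replicates, so these shares are given without a test.

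**Figure D1:**
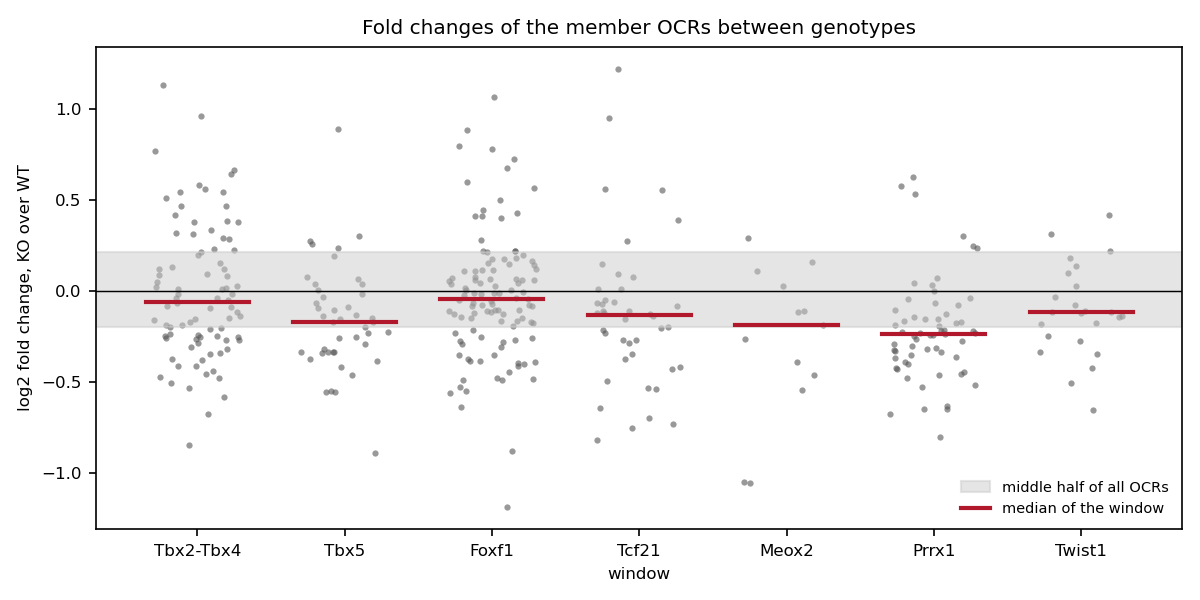
Log2 fold change (KO over WT, vertical axis) of every OCR in the 7 windows (horizontal axis), from edgeR. Points are OCRs, red lines the window medians and the grey band the middle quartiles of all OCRs, from -0.20 to 0.21; the Prrx1 median of -0.235 lies below the band and the Foxf1 median of -0.044 near 0.

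The loci differed widely in how much open chromatin they held. The Foxf1 window had 18.17 OCRs per 100 kb, the Tbx2-Tbx4 window 14.33, Prrx1 12.2, Tbx5 8.6, Tcf21 8.4, Twist1 4.0 and Meox2 2.6. Among all 4816 autosomal tiles of 500 kb, these densities lay at the percentiles 96.5 (Foxf1), 85.5 (Tbx2-Tbx4), 75.2 (Prrx1), 57.0 (Tbx5), 56.1 (Tcf21), 35.8 (Twist1) and 27.8 (Meox2). The OCRs themselves were like the rest of the table: their median length was 553.5 bp, against 519.0 bp for all OCRs, and their median level per length was 4.42 CPM per kb in both sets. At least 1500 bp were spanned by 11 of them (2.91%, against 2.13% of all OCRs), and 18 had a mean of at least 20 CPM (4.76%, against 5.76%). A repeat lay in 57.4% of them, against 62.0% of all OCRs, and such OCRs can share counts with the repeat.

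**Figure D2:**
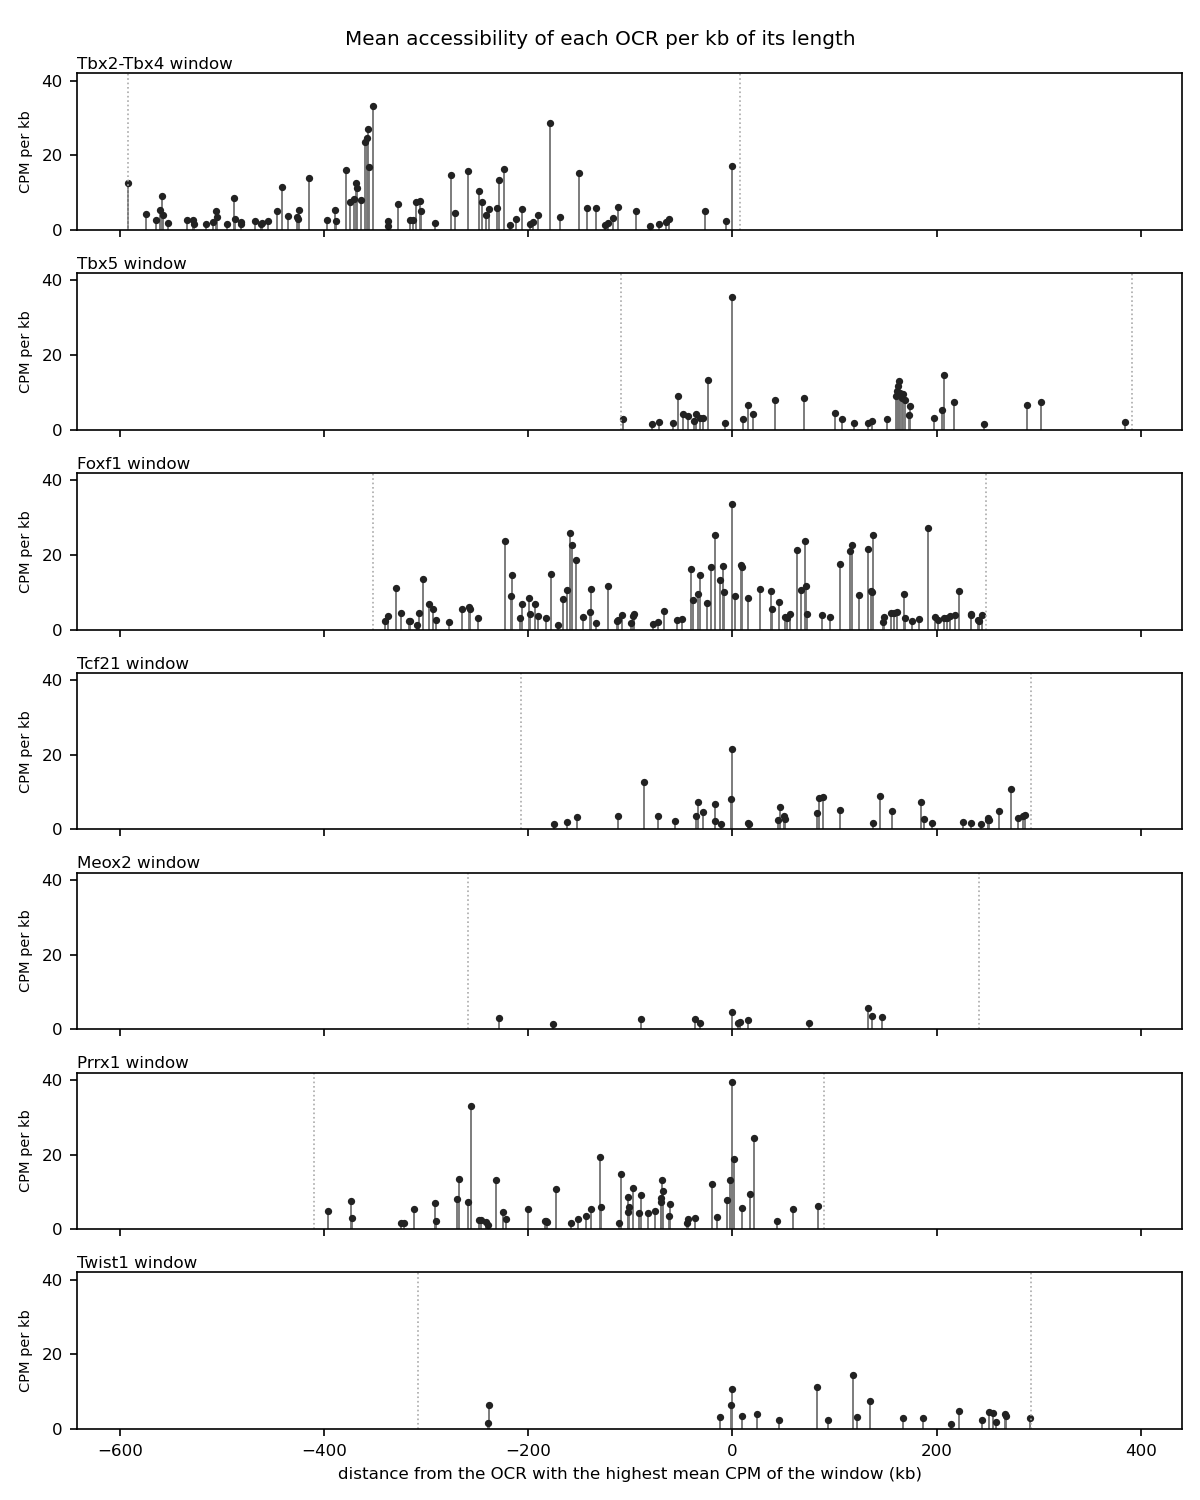
Mean level over the 8 libraries of each OCR per kb of its length (vertical axis, CPM per kb) against its distance from the window's OCR with the highest mean CPM (horizontal axis, kb), with dotted lines at the window ends. The Foxf1 window is filled along its whole length, the Twist1 window has a stretch of 225.9 kb with no OCR, and the Meox2 window has only low OCRs.

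The Tbx2-Tbx4 window held OCRs with mean levels of 0.409 to 32.4 CPM, and its ratio of KO to WT summed levels was the nearest to 1 of the 7. In the RefSeq gene order Bcas3 comes before Tbx2, and Brip1, a DNA helicase gene, after Tbx4. Summed over its 86 OCRs, the window had 386.7, 383.9, 424.1 and 385.2 CPM in KO F1, F2, M1 and M2, against 376.6, 412.7, 423.9 and 390.4 CPM in WT F1, F2, M1 and M2. The groups overlapped over nearly their whole range, and the means were 395 ± 19.5 CPM in KO and 401 ± 21.4 CPM in WT (SD, n = 4 each), a ratio of 0.985. The OCR with the highest mean, chr11:86091451-86093352 (1902 bp), averaged 33.4 ± 3.87 CPM in KO and 31.4 ± 5.67 CPM in WT, and it alone held 8.1% of the window's counts. It was also the last OCR inside the window. Per length, chr11:85739874-85740339 stood highest, at 33.2 CPM per kb.

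The OCR with the lowest p of the Tbx2-Tbx4 window, chr11:85703262-85703665, had 1.68, 3.92, 1.99 and 4.20 CPM in the KO libraries (F1, F2, M1, M2) and 1.10, 1.60, 1.23 and 1.40 CPM in the WT libraries. All KO values lay above all WT values, with KO F2 and KO M2 well above KO F1 and KO M1. The log2 fold change was 1.13 (SE 0.35), with an adjusted p of 0.328 by edgeR's quasi-likelihood test. The OCR that varied most, chr11:85563643-85564167, had 0.280, 1.40, 1.55 and 1.47 CPM in KO and 0.603, 1.98, 2.37 and 0.981 CPM in WT, with KO F1 lowest and the groups overlapping.

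The Tbx5 window was dominated by 1 wide and high OCR. Tbx3, another T-box gene, precedes Tbx5 in the RefSeq order, and Rbm19, whose product acts in ribosome formation, follows it. The OCR at chr5:119807870-119809836 (1967 bp) had the highest mean of all 378, at 62.1, 69.9, 65.5 and 62.0 CPM in KO and 57.0, 83.4, 92.0 and 65.9 CPM in WT. It held 33.2% of the window's counts. KO libraries lay close together (64.9 ± 3.71 CPM) and inside the wider WT range (74.6 ± 16.0 CPM), and the log2 fold change of -0.20 (SE 0.15) had an edgeR adjusted p of 0.764. A second, dense group of OCRs lay further along the chromosome, as the plot of levels along the windows shows, and the widest gap, of 81.1 kb, lay before the last OCR.

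The summed level of the Tbx5 window was 198.0, 199.6, 209.8 and 187.4 CPM in KO, against 192.5, 231.2, 242.1 and 218.9 CPM in WT, with WT F1 inside the KO range and the other WT libraries above it. The means were 199 ± 9.17 CPM in KO and 221 ± 21.3 CPM in WT, a ratio of 0.899. At chr5:119776376-119776776, the OCR with the lowest p, KO libraries had 2.31, 1.55, 0.854 and 1.65 CPM and WT libraries 0.931, 0.711, 0.769 and 0.923 CPM (log2 fold change 0.89, SE 0.33, edgeR adjusted p = 0.394). KO M1 lay among the WT values, so the groups overlapped. At chr5:119982855-119983548, the most variable OCR, KO libraries had 1.05, 5.26, 4.84 and 3.59 CPM and WT libraries 3.67, 3.82, 7.59 and 5.85 CPM, with KO F1 lowest and WT M1 highest.

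The Foxf1 window was the richest in OCRs and the most evenly filled, with 8 OCRs of at least 20 CPM among its 109. Irf8, a transcription factor gene of myeloid and B cells, comes before Foxf1 in the RefSeq order, and Mthfsd and the forkhead gene Foxc2 after it. The 3 highest OCRs held 12.7% of the window's counts, against 62.1% in the Meox2 window and 58.9% in the Twist1 window. The summed level was 734.7, 646.0, 690.8 and 607.8 CPM in KO, against 686.3, 666.7, 715.9 and 792.2 CPM in WT. KO F1 was high and KO M2 low within KO, WT M2 was the highest library, and the groups overlapped. The means were 670 ± 54.9 CPM in KO and 715 ± 55.1 CPM in WT, a ratio of 0.936. The first component of the other OCRs took 58.1% of this window's variance.

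In the Foxf1 window the highest OCR, chr8:121851634-121852652, averaged 32.3 ± 0.873 CPM in KO and 36.3 ± 5.07 CPM in WT. The OCR with the lowest p, chr8:121878772-121879685, had 7.81, 7.44, 9.36 and 7.50 CPM in KO, against 9.26, 12.5, 12.9 and 12.8 CPM in WT. WT F1 lay just under KO M1, and the other WT libraries lay above every KO library. The log2 fold change was -0.56 (SE 0.15), with an adjusted p of 0.323 by edgeR and of 0.0407 by DESeq2. The most variable OCR, chr8:121854065-121854324, split the libraries across genotypes: it had 0.466, 3.22, 2.74 and 2.80 CPM in KO and 0.931, 4.00, 3.83 and 0.962 CPM in WT, with KO F1, WT F1 and WT M2 low.

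The Tcf21 window held the OCR with the lowest p of all 378 and was the 1 window whose summed level did not overlap between the genotypes. Tbpl1, a gene related to the TATA-binding protein, and Eya4, a transcriptional coactivator gene, are its neighbours in the RefSeq order. The OCR at chr10:22695156-22696557 (1402 bp) had 7.50, 10.1, 11.4 and 7.75 CPM in KO, against 12.3, 15.0, 17.0 and 17.0 CPM in WT. Every KO library lay below every WT library, with KO M1 and WT F1 the closest pair. The means were 9.18 ± 1.87 CPM in KO and 15.4 ± 2.23 CPM in WT (SD, n = 4 each), and the log2 fold change was -0.73 (SE 0.16). The unadjusted p was 0.00107 and the adjusted p 0.323 by edgeR's quasi-likelihood test, and the adjusted p was 0.0155 by DESeq2. Without each library in turn the edgeR log2 fold change was -0.85 to -0.63. This OCR overlaps a repeat and was picked as the lowest p of its window, a choice that favours separated groups.

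The summed level of the 42 OCRs of the Tcf21 window was 148.4, 136.9, 149.2 and 135.0 CPM in KO, against 152.2, 151.7, 150.6 and 173.6 CPM in WT, with WT M1, the lowest WT library, just above KO M1, the highest KO library. The means were 142 ± 7.49 CPM in KO and 157 ± 11.1 CPM in WT, a ratio of 0.907. Of the 3676 autosomal tiles of 500 kb with at least 10 OCRs, 4.95% did not overlap in either direction and 1.39% with KO below WT. With the size factors of DESeq2 (RLE) in place of TMM the groups stayed apart (136.3 to 148.8 CPM in KO, 151.0 to 174.2 CPM in WT). The separation was lost when counts were scaled by OCR totals without TMM factors (134.6 to 151.7 CPM in KO, 146.6 to 171.8 CPM in WT). It was also lost when counts were scaled by the totals of the whole table, and over the OCRs that overlap no repeat (66.3 to 71.3 CPM in KO, 68.8 to 74.9 CPM in WT). The highest OCR of the window, chr10:22606529-22608064, held 22.1% of the counts, with overlapping groups at 33.9 ± 2.53 CPM in KO and 32.2 ± 1.62 CPM in WT.

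Another Tcf21 window OCR with separated groups, chosen after its values were seen, was chr10:22653844-22654383, which overlaps no repeat. It had 2.14, 1.94, 3.19 and 1.94 CPM in KO and 4.66, 3.71, 4.43 and 3.44 CPM in WT, and its edgeR adjusted p was 0.323. The most variable OCR, chr10:22571244-22571551, had 2.98, 0.823, 1.35 and 1.22 CPM in KO and 1.37, 0.467, 0.385 and 0.596 CPM in WT. KO F1 was highest there, and WT F1 lay among the KO libraries.

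**Figure D3:**
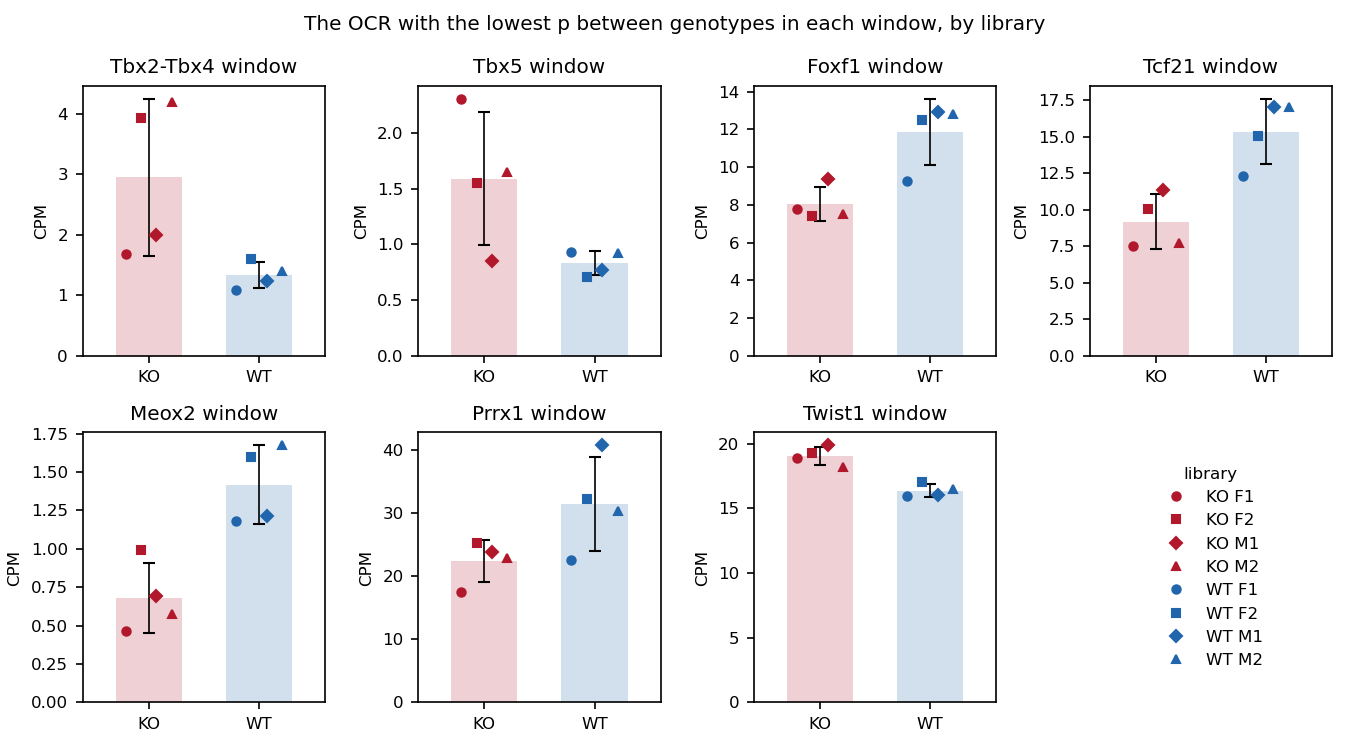
Level (CPM, vertical axis) of the OCR with the lowest p in each window, by library, with KO left of WT; bars are means and error bars the SD over 4 libraries. KO lies wholly below WT in the Tcf21 panel (9.18 and 15.4 CPM on average) and the Meox2 panel, and wholly above it in the Tbx2-Tbx4 and Twist1 panels.

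**Figure D4:**
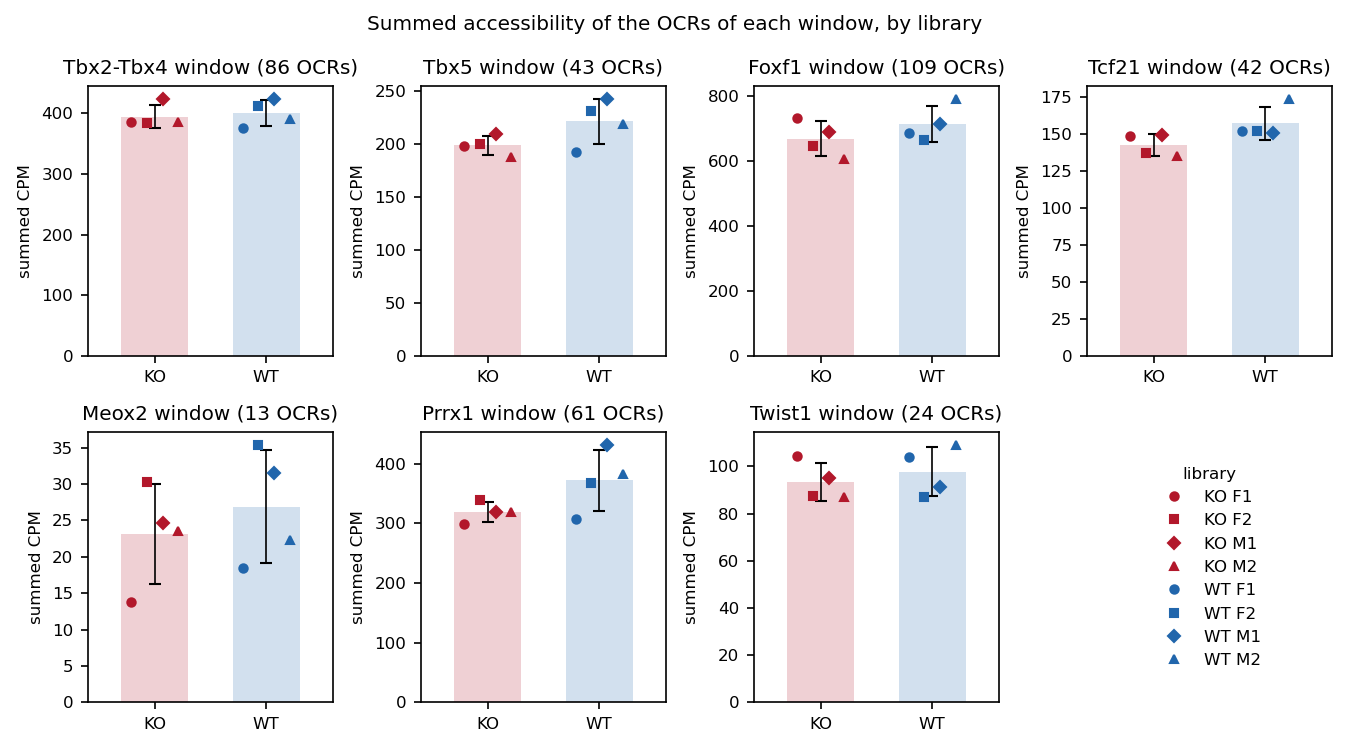
Summed level of all OCRs of each window (CPM, vertical axis) by library, with KO left of WT; bars are means and error bars the SD over 4 libraries. The groups overlap in every window but that of Tcf21, where KO libraries reach 149.2 CPM and WT libraries begin at 150.6 CPM.

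The Twist1 window, the other locus of a helix-loop-helix factor, held few OCRs and an empty stretch of 225.9 kb between its first OCRs and the rest. In the RefSeq order Ferd3l, itself a helix-loop-helix gene, comes before Twist1, and the histone deacetylase gene Hdac9 after it. The summed level was 104.2, 87.4, 94.9 and 87.0 CPM in KO and 103.8, 86.9, 91.4 and 108.9 CPM in WT. KO F1, WT F1 and WT M2 were the 3 highest libraries, so the groups overlapped fully (ratio 0.955). The first component of the other OCRs took 68.3% of the variance of this window, the largest share of the 7. Its part in the genotype difference was not tested.

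The widest OCR of the 378 was in the Twist1 window, at chr12:34006667-34008936 (2270 bp), with 26.9, 21.1, 21.7 and 24.3 CPM in KO and 26.8, 20.1, 25.6 and 30.0 CPM in WT. It held 25.7% of the window's counts. The OCR with the lowest p, chr12:34089799-34091386, was higher in KO with little spread: KO libraries had 18.9, 19.3, 19.9 and 18.2 CPM and WT libraries 15.9, 17.0, 16.0 and 16.5 CPM. The groups did not overlap, but the log2 fold change of 0.22 (SE 0.10) was small and its edgeR adjusted p was 0.495. The most variable OCR, chr12:33995411-33995739, had 2.00, 0.557, 1.05 and 0.753 CPM in KO and 2.38, 0.355, 0.587 and 0.731 CPM in WT, with both F1 libraries high.

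The Meox2 window was the poorest in open chromatin and the most variable between libraries. Agmo, whose product is an enzyme that cleaves ether lipids, follows Meox2 in the RefSeq order. Its 13 OCRs summed to 13.8, 30.3, 24.6 and 23.6 CPM in KO, against 18.5, 35.3, 31.5 and 22.3 CPM in WT. KO F1 and WT F1 were the lowest libraries, and WT F2, WT M1 and KO F2 the highest. The highest and lowest library differed 2.55-fold, where the fold in the other windows was 1.13 to 1.44. The SD of the log2 sum over the 8 libraries was 0.442, at the percentile 98.9 of the 3676 autosomal tiles with at least 10 OCRs. This rank was not matched for the number of OCRs in a tile. The window had 2.6 OCRs per 100 kb, against a median of 7.0 over all autosomal tiles, and its highest OCR held 30.3% of its counts. The means of 23.1 ± 6.86 CPM in KO and 26.9 ± 7.81 CPM in WT differed by less than the spread within each genotype, at a ratio of 0.859.

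Nearby OCRs of the Meox2 window mostly varied together. For pairs up to 50 kb apart, the correlation over the 8 libraries had a median r of 0.838 (17 pairs), against 0.131 over all such pairs of the table (1160752 pairs). It was 0.293 for Foxf1, 0.279 for Prrx1 and between -0.003 and 0.127 for the others. These pairs share the libraries and their depth, so the values are a description. OCRs further apart were not compared, and 6 of the 13 Meox2 window OCRs, the highest included, lay within 50 kb of the highest. The highest OCR, chr12:37158113-37159751, had 2.84, 9.54, 7.69 and 5.45 CPM in KO and 4.44, 13.6, 11.8 and 5.31 CPM in WT, the same order of libraries as the window sum at the top and the bottom. At chr12:37069060-37069613, the most variable OCR, the values were 0.652, 2.74, 1.26 and 1.29 CPM in KO and 0.548, 2.00, 2.41 and 1.54 CPM in WT. The F1 libraries were again the lowest of both genotypes.

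At chr12:37294992-37295287, the Meox2 window OCR with the lowest p, KO libraries had 0.466, 0.993, 0.694 and 0.574 CPM, against 1.18, 1.60, 1.21 and 1.67 CPM in WT. The groups did not overlap. The log2 fold change was -1.05 (SE 0.33) and the edgeR adjusted p 0.328, and the levels were low. Close by, chr12:37291101-37292190, the highest OCR of the window per length at 5.6 CPM per kb, had 4.64, 6.05, 6.25 and 8.72 CPM in KO and 5.15, 5.58, 6.21 and 6.56 CPM in WT, with the WT values inside the KO range. This OCR was chosen after its values were seen, and KO M2 was its highest library, where WT F2 was highest in the window sum.

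The Prrx1 window had a ratio of summed levels of 0.856, close to the 0.859 of the Meox2 window, and, with all libraries in the fit, the largest share of OCRs with fold changes below 0 of the 7 windows. Mroh9 and Gorab, a gene of a Golgi protein, are its neighbours in the RefSeq order. The summed level was 299.2, 339.7, 319.1 and 318.5 CPM in KO, against 307.0, 368.6, 431.0 and 383.7 CPM in WT. WT F1 lay inside the KO range, and the other WT libraries lay above every KO library. The means were 319 ± 16.5 CPM in KO and 373 ± 51.2 CPM in WT. Fold changes lay below 0 at 51 of the 61 OCRs. Of the 61, 8 were lower in KO at an unadjusted edgeR p under 0.05 and 1 higher, against 3.45% and 6.43% of all OCRs. The share below 0 was 78.7% to 85.2% when each library was left out. It was 39.3% with 2 surrogate variables, but the second of them separated the genotypes, so that fit could take up part of a genotype difference.

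The highest OCR of the Prrx1 window, chr1:163209664-163210596, had overlapping groups, at 32.2, 41.6, 31.8 and 43.0 CPM in KO and 31.3, 38.7, 41.0 and 34.4 CPM in WT. The log2 fold change was 0.03 (SE 0.14). The OCR with the lowest p, chr1:163188405-163190599 (2195 bp), had 17.5, 25.3, 23.8 and 22.8 CPM in KO, against 22.5, 32.1, 40.7 and 30.3 CPM in WT. WT F1 was again the WT library inside the KO range, and WT M1 the highest. The log2 fold change was -0.48 (SE 0.16), with an adjusted p of 0.357 by edgeR. At chr1:162953694-162954806, chosen after its values were seen as the second highest per length, the values were 26.8, 37.5, 32.3 and 33.4 CPM in KO and 27.3, 42.8, 56.9 and 36.4 CPM in WT, with WT M1 far above the rest. The most variable OCR, chr1:163027627-163028180, had 1.14, 0.630, 1.33 and 0.574 CPM in KO and 1.95, 0.200, 0.607 and 1.62 CPM in WT.

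**Figure D5:**
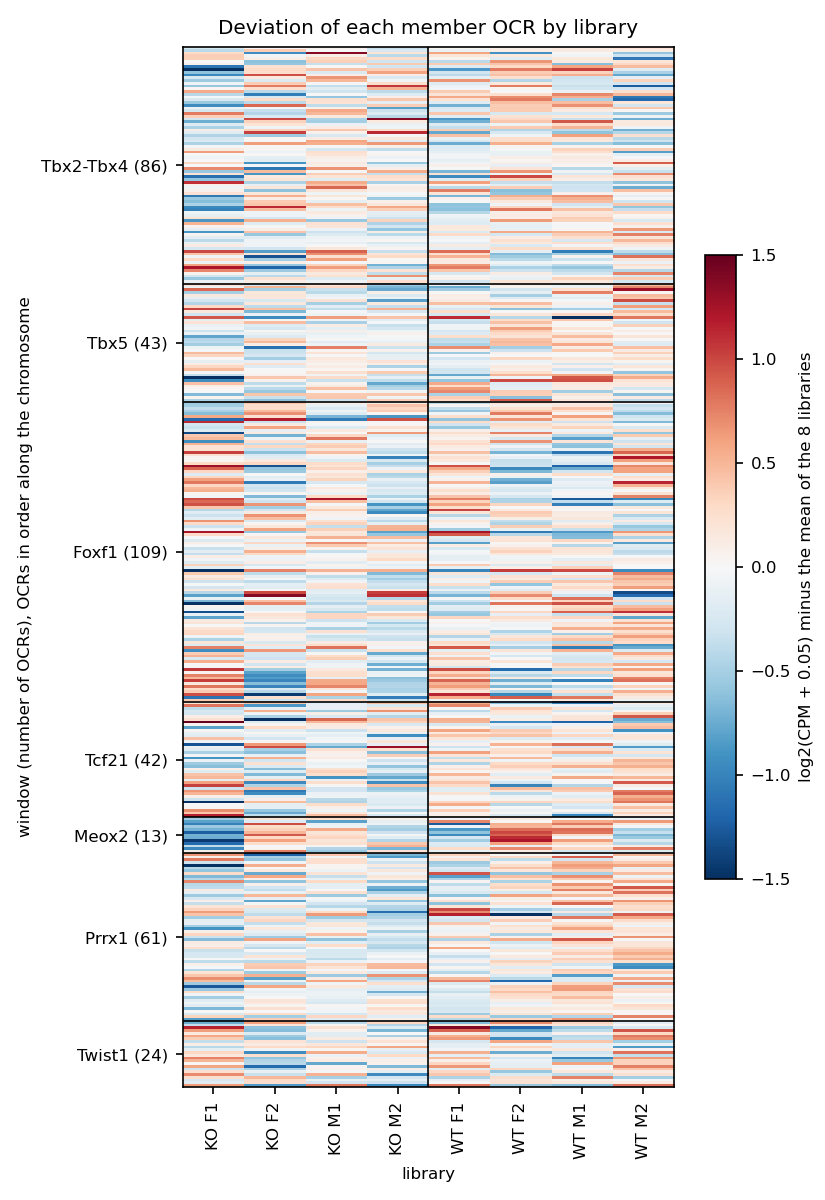
Deviation of each of the 378 OCRs (rows, in order along each window) from its mean over the 8 libraries (columns, KO left of WT), as log2(CPM + 0.05). In the Meox2 rows KO F1 and WT F1 are mostly blue (low) and WT F2 mostly red (high), and in the Prrx1 rows the WT M1 and WT M2 columns are mostly red.

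The windows end at round positions, and the OCRs on either side of each border were low to moderate. Just inside, chr10:22893064-22894238 had 4.58 CPM and chr1:162813408-162814330 had 4.55 CPM, and just outside, chr10:22903623-22904564 had 2.65 CPM and chr1:162792713-162793207 had 1.42 CPM. The exceptions inside were the first and last OCRs of the Tbx2-Tbx4 window, at 10.2 and 32.4 CPM. Outside, the next OCR after the Foxf1 window had 9.31 CPM and the next after the Tbx5 window 7.77 CPM.

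The loci were also compared between the sex labels, and few OCRs stood out. KO F2 carries a female label but had 24.9 CPM over the OCRs at the start of chromosome Y, near the male-labelled libraries. Tests that include KO F2 compare labels, and their counts cannot show how the sexes differ. Between male- and female-labelled libraries, 0 of the 378 OCRs passed with edgeR (background 0%), and 3 had an unadjusted p under 0.05 (0.79%, against 0.997% of all OCRs). DESeq2 called 0 of the 378 and 21 of all OCRs, with 4 of the 378 at an unadjusted p under 0.05 (1.06%, against 1.24% of all OCRs). When KO F2 was left out, 0 of the 378 and 15 of all OCRs passed with edgeR, with 19 of the 378 at an unadjusted p under 0.05 (5.03%, against 3.3% of all OCRs). The genotype difference was tested for a difference between the sex labels in the same way, and 0 of the 378 OCRs passed with edgeR (background 0%). At an unadjusted p under 0.05 there were 8 (2.12%, against 1.54% of all OCRs), 4 of them among the 109 OCRs of the Foxf1 window, the largest set. DESeq2 called 0, with 6 at such a p (1.59%, against 1.39% of all OCRs). Without KO F2, edgeR called 0, with 14 at such a p (3.7%, against 2.69% of all OCRs).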

How the data were processed

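ATAC-seq libraries of 8 mice were analysed. Per the submitters' processing notes, the authors used featureCounts, MACS2, bedtools, Bowtie2, Picard, SAMtools and Trim Galore with build GRCm39; the notes give no roles. The deposited table holds estimated counts, not all whole, that the authors made with featureCounts 2.0.3 per the file header, for 185268 OCRs and 4650627 repeats. How peaks were merged, whether reads were shifted for the transposase and which versions of the other tools were used are not given in the sources used here. Where an OCR overlaps a repeat, both rows can hold the same reads.

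Counts were rounded to whole numbers. OCRs were filtered with filterByExpr, which kept 185267, all 378 window OCRs among them, and scaled by TMM. They were tested with edgeR 4.0.16 (glmQLFit, glmQLFTest; sex label and genotype) in R 4.3.3, with Benjamini-Hochberg adjustment over all OCRs and a threshold of 0.05. The SE is the log2 fold change over the square root of F. Alternatives used DESeq2 1.42.0, limma 3.58.1 (voom, sample weights), sva 3.50.0, other scalings and filters, a replicate block and each library left out, and the fit was tested on simulated data. Summed levels have no test. OCRs named per window were those with the highest mean CPM, the lowest p and the largest SD of log2 CPM at a mean of at least 1 CPM; others are marked as chosen after their values were seen. The windows and lists were chosen with earlier results of these data known; OCRs within a window were taken by position.

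The annotation used here is of GRCm38.p6, so it served for gene order, names and start sequences only. OCRs at start sites and marker genes were not analysed here. All per-sample columns were mapped to a sample. The depth was 43247448 to 72915716 counts per library in the whole table, and an OCR of 1 CPM had about 28.0 to 55.3 counts.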

Additional observations from a re-analysis of the deposited data

Results flagged for a closer look

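In 4 of 56 groups of 4 libraries (summed levels and named OCRs), 1 library stood apart from the other 3 by more than the critical gap of Dixon's test. Chance alone exceeds that gap in about 1 of 20 groups that were not picked on their values. The named OCRs were picked by mean, p or SD in these data, so that rate may not hold for them. The summed level of the Tbx2-Tbx4 window was 424.1 CPM in KO M1, against 383.9 to 386.7 CPM in the other KO libraries, although WT M1 had 423.9 CPM. The summed level of the Tcf21 window was 173.6 CPM in WT M2, against 150.6 to 152.2 CPM in the other WT libraries. At chr11:85563643-85564167 in the Tbx2-Tbx4 window, KO F1 had 0.280 CPM, against 1.40 to 1.55 CPM in the other KO libraries. At chr8:121878772-121879685 in the Foxf1 window, WT F1 had 9.26 CPM, against 12.5 to 12.9 CPM in the other WT libraries, and it was the 1 WT library inside the KO range.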

How the results depend on the processing

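The count of 0 window OCRs called by edgeR was 2 with DESeq2 and 12 with 1 surrogate variable, 3 higher and 9 lower in KO, and the 0 over all OCRs was 2739 and 10785. The cause was not tested, and neither count was repeated with libraries left out. With limma voom sample weights, no sex covariate, other scalings and filters, and each library left out, both counts were 0. They were also 0 with 2 surrogate variables, where the estimated number was 1. The second of those variables separated the genotypes, so that fit could take up a genotype difference and its 0 cannot show that none exists. With the replicate block, both counts were 0. That model had 40 of the 378 window OCRs and 23004 of all 185267 tested at an unadjusted edgeR p under 0.05. The main fit had 33 (8.73%) and 18295 (9.87%). The numbers were not taken to pair the samples, since deviations of same-numbered libraries correlated at 0.586 (F1), 0.606 (F2), -0.293 (M1) and -0.446 (M2).

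The log2 ratio of summed levels in the Tcf21 window was -0.048 over OCRs that overlap no repeat, against -0.141. Of 84 alternatives for the 7 ratios, 82 were below 0. The other 2 were Tbx2-Tbx4 ratios, 0.006 without WT M1 and 0.043 over OCRs that overlap no repeat. These alternatives reuse the same counts, rescaled or with some libraries or OCRs left out, and none includes surrogate variables. The tally is therefore not a count of independent results. Of 378 alternatives for the fold changes of named OCRs, 348 kept the sign. Without WT F2 the share of Meox2 window OCRs below 0 was 38.5%. The share in the Tbx5 window was 44.2% with 2 surrogate variables, the second of which separated the genotypes. Alternatives on the distance to a start site were not run. Low counts limit the variable OCRs near 1 CPM.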

Other observations

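Of the 378 OCRs, 96 overlapped a simple repeat, 77 a SINE, 65 an LTR element and 33 a LINE, and 1 OCR can count in several classes. The share overlapping any repeat was 67.4% in the Tbx5 window, 66.7% in Tcf21, 62.5% in Twist1, 57.4% in Prrx1, 54.7% in Tbx2-Tbx4, 52.3% in Foxf1 and 46.2% in Meox2. Repeats covered 15.2% of the bases of the 378 OCRs, against 19.7% over all OCRs.

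With 1 surrogate variable, the 12 OCRs called were spread over 6 of the 7 windows, with none in the Twist1 window. They numbered 4 in Foxf1, 3 in Tcf21, 2 in Prrx1 and 1 in each of the Tbx2-Tbx4, Tbx5 and Meox2 windows. The OCR called in the Tbx5 window, shown after its values were seen, was chr5:120005878-120006909, with 1.44, 2.93, 2.21 and 2.15 CPM in KO and 1.86, 5.60, 5.51 and 3.23 CPM in WT. In the Foxf1 window chr8:121989164-121989927, chosen in the same way, had 13.6, 20.1, 16.0 and 14.9 CPM in KO and 17.6, 23.3, 25.9 and 24.2 CPM in WT, with WT F1 inside the KO range at both.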
